A study of Mus musculus with 2 samples.

Results

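The 10 genes described here encode matricellular proteins and proteoglycans of the extracellular matrix, namely Acan, Vcan, Bgn, Dcn, Sparc, Fn1, Tnc, Postn, Thbs1 and Spp1. They were taken as a named set, by pairing the Ensembl identifiers of the count table with GENCODE M21 gene symbols. The rule holds no measured value, but the set was drawn up with earlier results of these data known. All 10 were found among the 35275 genes of the table. Of these, 8 had at least 10 reads over both libraries, as did 14383 genes in all, and Bgn and Dcn did not. The cells were AML12, a line of mouse hepatocytes that are not transformed, either left alone or driven into senescence with repeated sublethal hydrogen peroxide. Control cells were untreated. Senescent cells received 1 mM peroxide on the first day and 750 μM on later days, for 1 h per day over 6 days in all, with 23 h of recovery after each exposure. Both groups were grown in medium with serum, insulin, transferrin, selenium and dexamethasone. The exposures themselves were made in serum-free medium, and the paper does not say whether serum was also withdrawn from control cells. The labels give the source as liver of male CD-1 mice aged 3 months, and AML12 is a single established line that carries a human TGF-alpha transgene, so the cells of both groups share that background. RNA of 3 samples per group was pooled into 1 library per group, so replicates could not be compared and no p-value is given. A ratio therefore compares the libraries, not the conditions.

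Aggrecan and versican are hyalectans, large proteoglycans that bind hyaluronan and carry chondroitin sulfate chains, which hold water in the matrix. Biglycan and decorin are small leucine-rich proteoglycans that bind collagen fibrils. Fibronectin is an adhesive glycoprotein that hepatocytes also secrete into plasma, and the matricellular proteins SPARC, tenascin-C, periostin, thrombospondin-1 and osteopontin mainly change how cells attach and signal. In the liver much of this matrix is made by stellate cells and fibroblasts, and osteopontin also by bile duct cells.

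The control library held 28021941 reads and the senescent library 25738075 reads on genes. The log2 ratio of senescent over control was computed from TMM-scaled counts with a prior count of 1. Its 95% interval covers counting error only, with each read taken as independent, and holds no biological variation. Without molecular identifiers several PCR reads can stem from 1 molecule, so the interval can be too narrow even for counting error. To count as higher or lower, a gene needed a log2 ratio past 1.5 in that direction, an interval without 0 and at least 10 reads in all. Of the 14383 genes, 2.71% were higher and 5.60% were lower by this rule, and the median log2 ratio was -0.02. All 12 hepatocyte markers had reads in both libraries, but some had few. The fibrinogen gene Fgb had 16 control and 14 senescent reads, and the transferrin gene Trf had 26 and 17. The keratins Krt8 and Krt18, which other epithelial cells express too, summed to 5499 CPM (reads scaled to library size) in control and 8295 CPM in senescent cells. The other 10 markers summed to 3043 CPM in control and 1902 CPM in senescent cells, and Alb, which encodes albumin, had 32076 control and 2917 senescent reads (log2 ratio -3.23).

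Acan and Tnc were higher in senescent cells, 2 of 8 members beside 2.71% of all genes tested. Sparc and Postn were lower, 2 of 8 members beside 5.60% of all genes tested. Acan differed most, with 24.3-fold more scaled reads in the senescent library. Fn1 and Spp1, the members with the most reads, were 2.47-fold and 2.05-fold lower and stayed inside the threshold of 1.5. At a threshold of 1 they were counted too, giving 2 members higher beside 5.09% of all genes and 4 lower beside 9.98% of all genes. Vcan was 1.85-fold higher, Thbs1 differed by less than its counting interval, Bgn had no read and Dcn had 4 reads in all. The median log2 ratio of the 8 members was -0.49. In bulk RNA, fewer cells that express a gene and less RNA of it per cell cannot be told apart.

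**Figure D1:**
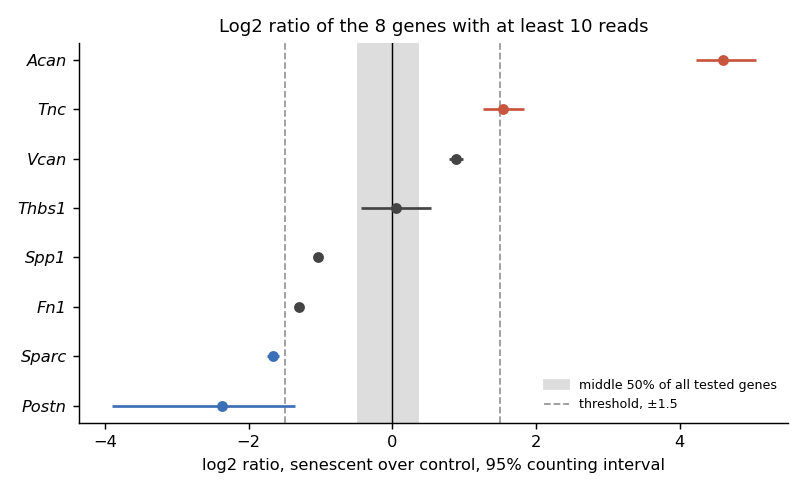
Log2 ratio of senescent over control for the 8 members with at least 10 reads, from TMM-scaled counts of 1 library per group. Points are ratios, bars are 95% counting intervals, dashed lines mark the threshold of 1.5 in either direction and the grey band holds the middle 50% of all genes tested. Acan stands at 4.61 and Tnc at 1.53 on the right, and Sparc at -1.66 and Postn at -2.37 on the left.

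Aggrecan is best known as the main proteoglycan of cartilage. Acan (ENSMUSG00000030607; chromosome 7, 79053483 to 79115099, plus strand, GRCm38) was counted 52 times in the control and 1101 times in the senescent library. The log2 ratio was 4.61 (95% interval 4.23 to 5.06), and it ranked 9 of 14383 genes from the highest ratio. Its level went from 0.239 to 5.94 CPM per kb of merged exon. Among genes with at least 100 reads, the next above it in log2 ratio were Fosb, a subunit of the transcription factor AP-1, at 6.09 and the predicted gene Gm45837 at 4.98. The next below were the interferon-inducible gene Ifi207 at 4.28 and the protease gene Ctse at 4.24. The ratio kept its direction and stayed past the threshold under every scaling and prior count tried. Filters and the assumed variation do not enter the ratio, and Acan was counted as higher under each of them.

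Vcan (ENSMUSG00000021614; chromosome 13, 89655312 to 89742509, minus strand) encodes versican, a hyalectan of soft and provisional matrix. Its reads numbered 1327 in control and 2091 in senescent cells, and the log2 ratio was 0.89 (0.79 to 0.99), inside the threshold. Per kb of exon it was at 3.16 CPM in control and 5.83 CPM in senescent cells. Set against each other per kb, Acan was at 0.0759 of the Vcan level in control cells (0.0564 to 0.1001) and at 1.02 of it in senescent cells (0.947 to 1.10). With the length of the longest coding transcript in place of merged exons, these values were 0.0662 and 0.890. The hyalectans were therefore at unequal levels in control cells and at levels that could not be separated by counting error with merged exons in senescent cells. Together they held 0.500% of the summed per-kb level of the 10 members in control cells and 3.61% in senescent cells.

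**Figure D2:**
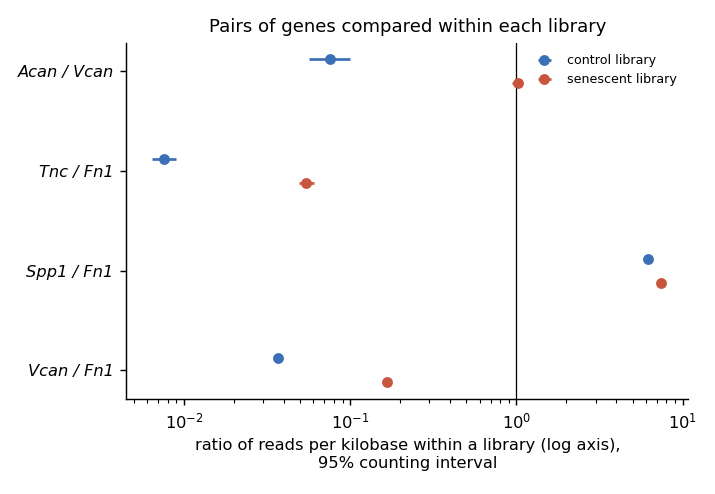
Ratio of per-kb levels between pairs of members in the control and the senescent library, on a log axis, with 95% counting intervals as bars. Acan over Vcan goes from 0.0759 to 1.02 and Tnc over Fn1 from 0.00759 to 0.0545, while Spp1 over Fn1 is 6.15 and 7.41.

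Chondroitin sulfate is attached to serines that are followed by glycine, so the coding sequences were searched for a serine codon directly before a glycine codon. The longest coding transcript of Acan held 122 such pairs in 2132 codons, 57.2 per 1000 codons, and that of Vcan held 30 in 3354 codons, 8.94 per 1000. Bgn had 4, Dcn 2, Tnc 19, Fn1 8, Thbs1 6 and Spp1 2 pairs, and Sparc and Postn had none. Acan thus had the densest pairs of the 10 members and the highest log2 ratio of the 8 with enough reads. Bgn, next in density at 10.8 per 1000, had no read. This is a description and not a test.

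The stretches before the transcription start of Acan, Vcan, Tnc, Postn and Spp1 are shown because these members span the range of log2 ratios from the highest to the lowest. Each is the 250 bases before a RefSeq start on GRCm38.p6, written 5′ to 3′ on the gene's strand, and the capitals mark matches on either strand to 6 motifs. The Acan stretch is chr7:79052976-79053225 on the plus strand, the Vcan stretch chr13:89742513-89742762 on the minus strand, and the Tnc stretch chr4:64047016-64047265 on the minus strand. The Postn stretch is chr3:54360857-54361106 and the Spp1 stretch chr5:104434861-104435110, both on the plus strand. The RefSeq start of Acan lies 257 bases before its GENCODE start, while the other starts shown lie at most 7 bases from theirs.
Acan: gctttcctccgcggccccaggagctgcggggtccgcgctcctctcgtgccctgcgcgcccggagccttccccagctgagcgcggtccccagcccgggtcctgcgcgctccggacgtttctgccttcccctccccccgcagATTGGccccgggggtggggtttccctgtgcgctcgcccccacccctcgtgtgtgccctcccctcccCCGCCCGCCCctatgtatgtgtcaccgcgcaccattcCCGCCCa
Vcan: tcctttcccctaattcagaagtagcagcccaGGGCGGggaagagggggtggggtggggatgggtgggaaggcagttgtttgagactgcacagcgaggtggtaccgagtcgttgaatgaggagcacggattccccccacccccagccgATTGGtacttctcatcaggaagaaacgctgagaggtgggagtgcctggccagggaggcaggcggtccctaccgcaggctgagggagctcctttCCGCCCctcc
Tnc: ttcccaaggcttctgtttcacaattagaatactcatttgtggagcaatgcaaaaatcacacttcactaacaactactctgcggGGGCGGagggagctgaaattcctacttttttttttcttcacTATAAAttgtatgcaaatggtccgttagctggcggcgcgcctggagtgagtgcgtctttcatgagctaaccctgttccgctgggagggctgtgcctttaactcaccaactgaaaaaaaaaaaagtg
Postn: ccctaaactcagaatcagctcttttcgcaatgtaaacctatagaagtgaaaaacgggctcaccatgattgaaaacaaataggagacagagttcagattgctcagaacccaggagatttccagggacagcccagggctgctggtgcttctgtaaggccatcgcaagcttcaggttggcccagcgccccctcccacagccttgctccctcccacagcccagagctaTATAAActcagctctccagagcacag
Spp1: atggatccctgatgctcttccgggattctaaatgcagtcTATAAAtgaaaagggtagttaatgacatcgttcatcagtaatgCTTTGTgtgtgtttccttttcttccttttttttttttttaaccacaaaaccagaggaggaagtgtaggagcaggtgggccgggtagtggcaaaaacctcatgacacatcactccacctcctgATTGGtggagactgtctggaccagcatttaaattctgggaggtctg

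The motifs were the TATA-box letters TATAAA, the GC-box letters GGGCGG, the CCAAT-box letters CCAAT, the AP-1 letters TGANTCA, the E-box letters CACGTG and the SOX-type letters ACAAAG, and matches were allowed to overlap. Of 32851 RefSeq promoter windows of the same length, 250 bases before to 50 after a start, 13.6% held the TATA box, 35.7% the GC box, 37.4% the CCAAT box, 7.81% the AP-1 letters, 7.15% the E-box and 18.7% the SOX-type letters. The Acan window was the richest in GC among those of the members, at 74.0% with 31 CpG, against a median of 52.7% and 7 CpG over all windows. Its stretch held GC boxes and a CCAAT box, as did that of Vcan (61.0% GC, 12 CpG). The windows of Tnc (47.3% GC), Postn (53.0% GC) and Spp1 (45.3% GC) each had a TATA box before the start, at -126, -26 and -211. RefSeq gives each of these 3 genes another start, whose window held a TATA box for Tnc but none for Postn (40.0% GC) or Spp1 (36.7% GC). GC boxes were also in both windows of Tnc, and CCAAT boxes in the shown window of Spp1 and the other window of Postn. The SOX-type letters were in both windows of Spp1, at -168 in the shown one and at -243 in the other. No window of Acan, Vcan, Tnc or Postn held them. The AP-1 and E-box letters were not in the windows of these 5 members. Windows were found for 7 of the 10 members.

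Fibronectin carries the Arg-Gly-Asp tripeptide (RGD) that integrins bind. Fn1 (ENSMUSG00000026193; chromosome 1, 71585520 to 71653200, minus strand) had 29310 reads in control and 10127 in senescent cells, with a log2 ratio of -1.30 (-1.34 to -1.27). By reads it ranked 76 of all genes in control and 386 in senescent cells. It shares 292 exon bases with Apol7d on the opposite strand, which had 243 and 72 reads, and the use of strand in counting is not given in the sources used here. Per kb of merged exon it was next to Spp1 in both libraries, at 86.3 and 34.9 CPM per kb.

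Spp1 (ENSMUSG00000029304; chromosome 5, 104435118 to 104441050, plus strand) encodes osteopontin, a phosphorylated RGD protein of bone, bile duct and injured liver. Its counts were 25430 in control and 10580 in senescent cells, a log2 ratio of -1.04 (-1.07 to -1.003). It held 78.1% of the members' summed per-kb level in control cells and 79.4% in senescent cells, more than the rest together in both libraries. The ratio of Spp1 to Fn1 per kb was 6.15 (6.05 to 6.26) in control and 7.41 (7.21 to 7.61) in senescent cells. Spp1 is also on the list of cholangiocyte markers, whose summed level was 1998 CPM in control and 1487 CPM in senescent cells. That sum includes Spp1 itself, at 874 and 427 CPM, so it is not a separate measure. Krt19, also on the list, had 22885 and 19177 reads (log2 ratio -0.03). The part of such cells in the result was not tested. Spp1 shares 309 exon bases with Gm42793 on the same strand, a gene that is not a row of the table.

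The RGD codons of the longest coding transcripts are shown with 12 bases on each side, the 9 bases of the codons in capitals, because integrins bind this motif in fibronectin and osteopontin. Codons are counted from 1 at the start codon, and the annotation is GENCODE M21. Fn1 had 2, at codons 1614 and 2181, and Spp1 had 1, at codon 145. Thbs1 (codon 927) and Acan (codon 1171) held 1 each, and the other 6 members, Sparc among them, held none.
Fn1 codon 1614: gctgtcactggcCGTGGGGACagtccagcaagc
Fn1 codon 2181: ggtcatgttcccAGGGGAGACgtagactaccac
Spp1 codon 145: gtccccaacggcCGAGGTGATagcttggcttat
Thbs1 codon 927: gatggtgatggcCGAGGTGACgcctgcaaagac
Acan codon 1171: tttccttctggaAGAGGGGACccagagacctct

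SPARC binds collagen and calcium and loosens cell attachment. Sparc (ENSMUSG00000018593; chromosome 11, 55394500 to 55423183, minus strand) had 6357 control and 1712 senescent reads. The log2 ratio was -1.66 (-1.74 to -1.59), 3.17-fold lower, and the gene ranked 691 from the lowest ratio. Its rank by reads went from 797 to 3608. Per kb of merged exon it was below Fn1 in control cells (57.7 against 86.3 CPM per kb), but by the longest coding transcript it was above it, with 17.6% of the members' summed level against 13.4% for Fn1. The order of these members thus depended on the length used. The genes nearest in log2 ratio were Acnat2 and Tle2 above (both -1.66) and Thrb, a thyroid hormone receptor, and Mex3b below (-1.66 and -1.67).

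Periostin joins collagen and tenascin in healing tissue. Postn (ENSMUSG00000027750; chromosome 3, 54361109 to 54391037, plus strand) was counted 47 times in control and 7 times in senescent cells. Its log2 ratio was -2.37, with a wide interval of -3.91 to -1.36 that spanned the threshold. It had 0.186 and 0.0324 CPM per kb. Its 95% interval per kb in control cells, 0.136 to 0.247, overlapped that of Acan, 0.179 to 0.314. Cyp2j5 and Ggt1 were next above in log2 ratio (both -2.37), and Gm26809 and Cavin3 next below (-2.38 and -2.39).

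Tenascin-C, a large glycoprotein of developing and wounded tissue, is absent from most adult matrix. Tnc (ENSMUSG00000028364; chromosome 4, 63959785 to 64047015, minus strand) was counted 148 times in control and 367 times in senescent cells. The log2 ratio was 1.53 (1.26 to 1.83), just past the threshold, which its interval spanned, with 0.655 and 1.90 CPM per kb. Scaling by total counts gave 1.43 and by upper quartiles 1.49, so the call was lost under both. Per kb, Tnc was at 0.00759 of the Fn1 level in control and at 0.0545 in senescent cells. The neighbours in log2 ratio were Mdm2, which encodes a p53 ligase, and Xpnpep2 above, and Spry4 and Parvb below, all at 1.53. It shares 176 exon bases with 8030451A03Rik on the opposite strand, which had 2 and 6 reads.

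Thrombospondin-1 inhibits angiogenesis and can activate latent TGF-beta. Thbs1 (ENSMUSG00000040152; chromosome 2, 118111876 to 118127133, plus strand) had 77 and 68 reads, and its log2 ratio was 0.05 (-0.44 to 0.54). Any difference was not detectable at this depth beyond that interval. Levels were 0.436 and 0.451 CPM per kb. Bgn (ENSMUSG00000031375; chromosome X, 73483602 to 73495933, plus strand) had 0 reads in both libraries. Dcn (ENSMUSG00000019929; chromosome 10, 97479609 to 97518143, plus strand) had 0 control and 4 senescent reads, and its counting interval began below 0 at -0.37, so no difference was detectable at this depth. Neither small leucine-rich proteoglycan could be tested.

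**Figure D3:**
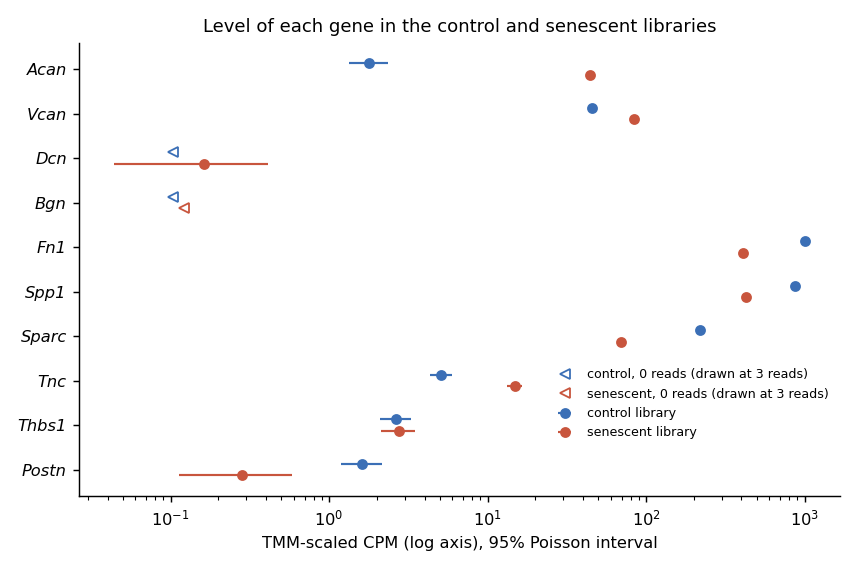
TMM-scaled CPM of each member in the control and the senescent library, on a log axis, not divided by gene length, with 95% Poisson intervals as bars and open triangles at the floor of 3 reads for libraries with 0 reads. Acan stands at 1.79 CPM in control and 44.4 CPM in senescent cells, while Fn1, Spp1 and Sparc are lower in senescent cells and both Thbs1 intervals overlap.

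In order per kb of merged exon, control cells had Spp1 (531), Fn1 (86.3), Sparc (57.7), Vcan (3.16), Tnc (0.655), Thbs1 (0.436), Acan (0.239) and Postn (0.186). Among neighbours in this order, 95% Poisson intervals overlapped only between Acan and Postn. In senescent cells the order was Spp1 (259), Fn1 (34.9), Sparc (18.2), Acan (5.94), Vcan (5.83), Tnc (1.90), Thbs1 (0.451) and Postn (0.0324), with Dcn at 0.0276, and intervals overlapped between Acan and Vcan and between Postn and Dcn. Acan was thus below Thbs1 and Tnc in control cells and above them in senescent cells. By the longest coding transcript, Postn was above Thbs1 and Acan in control cells, Vcan above Acan in senescent cells and Sparc above Fn1 in both. The 10 members together held 62748 control and 26057 senescent reads, 0.224% and 0.101% of the library. Fn1, Spp1 and Sparc made up 99.3% of the summed per-kb level in control cells and 95.7% in senescent cells.

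**Figure D4:**
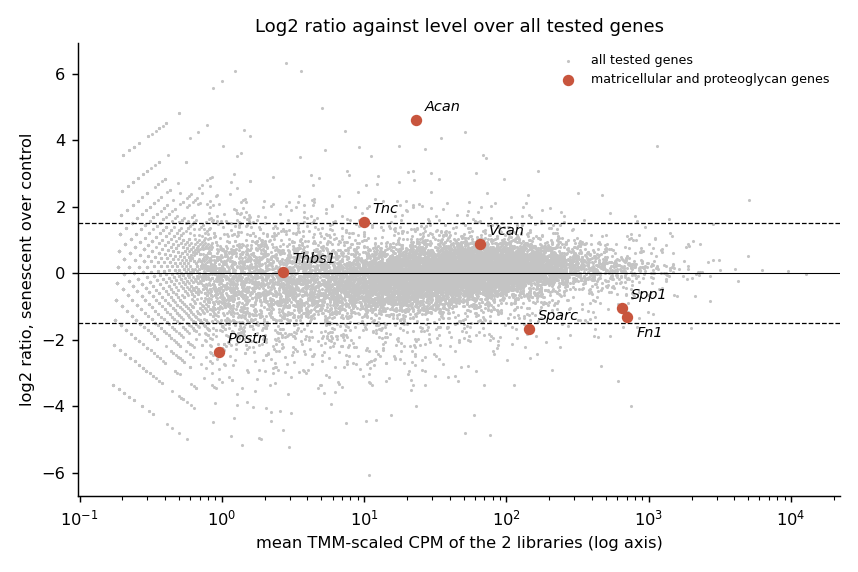
Log2 ratio of senescent over control against the mean scaled level, one point per gene with at least 10 reads, with the 8 members named. Acan at 4.61 lies above nearly all genes of like level, and Fn1 at -1.30 and Spp1 at -1.04 lie among the highly counted genes below 0.

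The lists of genes that act with the members were described by counts and medians, beside a median of -0.02 over all genes. Of all genes tested, 2.71% were higher and 5.60% were lower. Of 11 hyalectans and hyaluronan partners, 4 had enough reads and none was past the threshold (median 0.02). Cd44, the hyaluronan receptor, had 7002 and 8754 reads (log2 ratio 0.55) and Hapln4, a link protein, 373 and 226 (-0.49). Ncan, Bcan, Hapln1, Has1 and Has2 were at 0 in both libraries. The hyaluronan synthase gene Has3 had 69 and 58 reads (-0.02), and Hmmr, a hyaluronan-binding mitotic protein, 563 and 503 (0.07).

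ADAMTS proteases cut hyalectans in their core protein. Of 8 listed genes, their inhibitor Timp3 included, 5 had enough reads, all 5 had a log2 ratio below 0 and 3 were lower past the threshold (median -2.25). Adamts9 had 2739 and 335 reads (log2 ratio -2.80, -2.97 to -2.64). Adamts15 had 818 and 116 reads (-2.58, -2.88 to -2.31). Adamts1, the one with the most reads, had 4108 and 736 reads (-2.25, -2.37 to -2.14). Their summed level with the inhibitor gene Timp3 was 266 CPM in control and 48.9 CPM in senescent cells. The cartilage aggrecanases Adamts4 and Adamts5 had few reads, 42 and 20 for Adamts4 (-0.81) and 16 and 6 for Adamts5 (-1.07), both inside the threshold.

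Chains of chondroitin and dermatan sulfate are built by transferases that need activated sugars and sulfate. Of 25 such genes, 20 had enough reads, 1 was higher and none lower, and 15 were above and 5 below 0 (median 0.26). Papss2, which makes the sulfate donor, had 42 and 110 reads (log2 ratio 1.59, 1.09 to 2.17). B4galt7, which adds the second sugar of the linker, had 888 and 1654 reads (1.13). Ugdh, the source of glucuronic acid, led this list by reads, with 5090 and 7510 (0.79), but per kb it was below the linker transferase gene B3gat3 in both libraries. The epimerase genes went opposite ways inside the threshold, Dse with 37 and 86 reads (1.42) and Dsel with 811 and 254 (-1.44).

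Of 13 heparan sulfate proteoglycans and serglycin, 8 had enough reads, 1 was higher and none lower (median -0.36). The one higher was Sdc3, a syndecan, with 15 and 50 reads (1.89, named after its values were seen). Sdc4 had 10918 and 4430 reads (-1.07), Sdc1 6859 and 8945 (0.61), Sdc2 1347 and 715 (-0.68) and Gpc6 486 and 318 (-0.38). Agrn, which encodes agrin, had the most reads, 16102 and 13075 (-0.07), but per kb it was below Sdc4 and Sdc1 in both libraries. Of 13 other small leucine-rich proteoglycans, 3 had enough reads and 1 was higher, Ecm2, with 3 and 13 reads (2.0, 0.48 to 4.80, named after its values were seen). Their median was 0.03.

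Of 27 matricellular relatives, 11 had enough reads, with 1 higher and 6 lower (median -1.87). The lower ones included Spon2, a spondin, with 501 and 86 reads (log2 ratio -2.30), the SPARC relative Smoc1 with 289 and 54 (-2.17), and the CCN proteins Ccn4 with 2177 and 464 (-1.998) and Ccn1 with 2506 and 583 (-1.87). Ccn2, which encodes connective tissue growth factor, was the highest of the list in level, with 19633 and 26898 reads (0.68), and lay on the other side of 0. The others past the threshold, named after their values were seen, were Ccn5 with 35 and 6 reads (-2.15), Fstl1 with 27 and 3 (-2.61, -5.31 to -1.24) and Spon1 with 0 and 18, at least 7.04-fold higher against a floor of 3 reads, with a counting interval from 2.37 upward on the log2 scale. With genes of at least 1 read in all the median of this list was 0.51, so its direction depended on the filter.

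Integrins and other receptors bind the members at the cell surface. Of 17 receptor genes, 14 had enough reads, none was higher and 2 were lower (median -0.50). Itgb3, the beta subunit that pairs with alpha-v to bind RGD proteins, had 2812 and 656 reads (log2 ratio -1.87, -1.995 to -1.75). Its partner Itgav had 8813 and 5770 reads (-0.38, named after its values were seen), and Itgb8, the other gene past the threshold, had 10 and 1 (-2.30, -8.53 to -0.28, likewise). Highest in level on this list were Calr in control (39807 and 15134 reads, -1.17) and Itgb1 in senescent cells (18545 and 23966 reads, 0.60). Calr encodes calreticulin, and the RNA level does not show how much of a protein is at the cell surface. Cd47, a thrombospondin receptor, had 5208 and 2634 reads (-0.75).

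**Figure D5:**
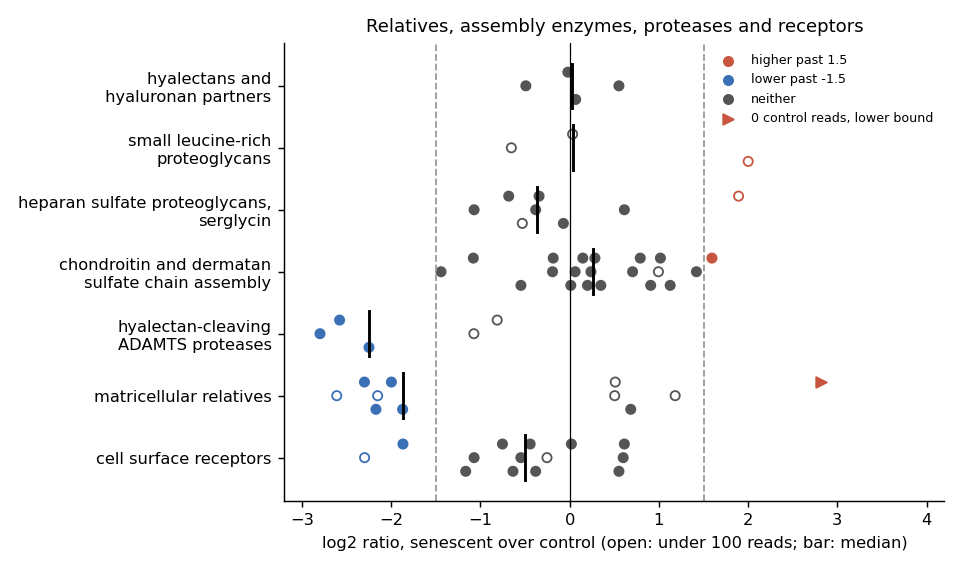
Log2 ratio of senescent over control for genes of 7 lists with at least 10 reads, with open circles for genes under 100 reads, a bar for each list's median and dashed lines at 1.5 and -1.5. The triangle is the lower bound for Spon1, which had 0 control reads. The ADAMTS proteases have their median at -2.25 and the matricellular relatives at -1.87.

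Markers of stellate cells and fibroblasts were at or near 0, and those of cartilage were so only in part. Over all genes tested, 2.71% were higher and 5.60% were lower. Of 12 stellate cell and fibroblast markers, summed at 1.03 CPM in control and 1.37 CPM in senescent cells, Col1a2, Col3a1, Lum, Thy1 and Acta2 had no read in either library. Of the 3 with enough reads, Rgs5 (3 and 16 reads) and Reln (0 and 12) were higher and Col1a1 (21 and 1) lower. Of 13 chondrocyte markers, 5 were at 0 in both libraries, and the collagen gene Col2a1 had 7 control reads and none in senescent cells. Of the 4 with enough reads none was higher and 1, Sox6, was lower (151 and 41 reads). Sox5 had 109 and 40 reads and the collagen gene Col9a3 had 32 and 43. The summed level of the chondrocyte markers, 134 and 185 CPM, was mostly Sox9, with 3602 and 4454 reads (log2 ratio 0.54), a gene of bile duct cells too. Macrophage markers summed to 194 and 82.2 CPM, mostly Cd14, with 4 of 10 at 0 in both and 2 higher, Csf1r (15 and 40 reads) and Ptprc (27 and 76). Endothelial markers summed to 0.481 and 1.53 CPM, with 1 of 8 higher, Vwf (8 and 24 reads). Of 8 cholangiocyte markers 1 was higher, Cftr (44 and 176 reads), and of 12 hepatocyte markers 2 were lower, Alb and Apoa1 (2026 and 197 reads). The marker genes in these counts were named after their values were seen. The levels of Acan and Postn were set beside these values only, and whether such cells contributed was not tested.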

How the data were processed

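RNAseq was read from 1 library per group, each of RNA pooled from 3 samples, after poly(A) selection and random-hexamer cDNA. The authors deposited raw read counts per Ensembl gene. The submitters' processing notes name CASAVA, STAR, DESeq2, edgeR and the build mm10, without roles. The counting tool, annotation and use of strand are not given in the sources used here. The columns were assigned to groups by the initials of the sample titles. Symbols, exons and coding sequences came from GENCODE M21, and promoter windows from RefSeq GRCm38.p6. Of the listed names, 7 were matched through RefSeq synonyms.

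TMM scaling used edgeR 4.0.16 (R 4.3.3), and the alternatives used DESeq2 1.42.0 size factors, total counts or upper quartiles. Python 3.11.15 gave the ratios, with a prior count of 1 and Clopper-Pearson 95% intervals (scipy 1.17.1, pandas 2.3.3), and matplotlib 3.10.9 the plots. The method was tested on simulated counts that held counting error only, so that test does not cover biological or PCR variation. The genes next to a member in log2 ratio were named when they had at least 100 reads. Of each list, the 4 largest absolute log2 ratios among genes with at least 100 reads and the highest CPM, not divided by length, were named. The other alternatives were filters of 1 or 100 reads, a smaller prior count or one of 5, thresholds of 1 or 2, an assumed coefficient of variation of 0.1 or 0.4, and the longest coding transcript as length. The members and lists were chosen with earlier results of these data known. With 1 library per group neither edgeR's nor DESeq2's test was run.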

Additional observations from a re-analysis of the deposited data

How the results depend on the processing

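Of the 8 members with enough reads, 7 kept the sign of their log2 ratio under the scalings and prior counts tried. Thbs1, at 0.05, was at -0.06 with total counts. Total counts gave log2 ratios of -1.77 for Sparc, -1.41 for Fn1 and -1.14 for Spp1, and moved the median of all genes by -0.11. Upper-quartile scaling gave -1.34 for Fn1 and -1.07 for Spp1. The members counted as higher were 1, Acan alone, with total counts, with upper quartiles, at a threshold of 2 and with an assumed coefficient of variation of 0.4. The members counted as lower were 1 with at least 100 reads (Sparc), 1 at a threshold of 2 (Postn) and 4 at a threshold of 1. Over all genes, the 390 higher and 805 lower became 141 and 395 with at least 100 reads, 732 and 1435 at a threshold of 1, and 219 and 460 at a threshold of 2. With a prior count of 5 the higher genes numbered 259. The log2 ratios of Acan, Sparc, Fn1, Tnc, Postn and Spp1 and the counts of members were recomputed under the alternatives, Postn not with at least 100 reads. Of these values, 75 stayed the same, and the 5 that moved and the 7 counts that changed are given above. The filters, thresholds and assumed variation do not enter the ratio of a gene, so that it stayed the same under them was fixed in advance. Of the medians of lists, shares per kb and remaining values, 168 stayed the same and 26 moved, and the shares of all genes counted changed by over 1.5 times with the counts above. The medians of lists could not move under the thresholds or the assumed variation either. No paired analysis was possible because each group has 1 library. Depth limited Postn, Dcn, Bgn and Thbs1, whose counts were under 100 in both libraries. The intervals hold no biological variation.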
